A study of Mus musculus with 6 samples.

Results

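The 7 genes described here encode ubiquitin itself (Ubb and Rps27a), proteins that carry ubiquitin-tagged substrates to the proteasome (Ubqln1, Ubqln2, Ubqln4 and Rad23b) and the proteasome-binding zinc finger protein Zfand5. They were taken as the non-control array probes that carry one of these gene names, which gave 15 probes of 55681. All 7 genes had at least 1 probe with enough signal to be tested, and so had 12 of the 15 probes. They are 7 of 19299 features tested. The RNA came from sorted satellite cells (the resident stem cells of muscle) of the C57BL6 strain, from 3 mice with a satellite cell knockout of Rpt3 and from 3 control mice. Each sample was hybridized to 1 array. Rpt3, encoded by Psmc4, is an ATPase of the 19S particle of the proteasome. The genotype of the controls, the driver and time of the deletion, and the age of the mice are not given in the sources used here. A whole-population array cannot tell fewer cells of a type from less RNA per cell.

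Ubiquitin is never made as a free protein. Ubb encodes a chain of head-to-tail ubiquitin repeats, while Rps27a encodes ubiquitin fused to a ribosomal protein, and proteases cut both products into single units. Shuttle factors hold a ubiquitin-like domain that docks on receptors of the 19S particle and a domain that binds ubiquitin chains, so they can deliver tagged proteins. Ubiquilins also bind chaperones and hydrophobic segments of substrates, and Rad23b in addition stabilises the DNA damage sensor Xpc. Zfand5 binds the proteasome and raises its activity, and it is known to be induced in wasting muscle.

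The probes of the ubiquitin genes are shown first, because what each can distinguish bears on every ubiquitin value. The brighter Ubb probe (A_55_P1965827; build mm9, chr11:62366049-62366108, plus strand) lies in the coding part and runs over a junction between ubiquitin repeats. The Rps27a probe A_55_P1976108 (mm9, chr11:29445914-29445973, minus strand) lies in the part that codes for the ribosomal protein. Capitals mark the first codon of the next repeat in Ubb.
Ubb, coding part: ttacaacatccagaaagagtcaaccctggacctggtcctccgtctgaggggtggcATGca
Rps27a, ribosomal part: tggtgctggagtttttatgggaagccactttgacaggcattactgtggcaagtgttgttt

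Signals are given as log2 of the array's processed intensity minus its 75th percentile, so 0 stands for the 75th percentile of each array. Differences are knockout minus control on this log2 scale. Between 44.2% and 57.9% of probes were well above background on the arrays, with knockout 3 lowest and knockout 1 highest. Knockout 1 and 2 lay in row 1 of the slide, and knockout 3 lay in row 2 with the controls, so a value with slide row as a block rests on knockout 3 against the controls. Knockout 3 also stood apart in the first principal component (29.5% of the variance), at 72.4, where the other arrays lay between -24.1 and -4.35. Psmc4, the targeted gene, read 2.05, 2.07 and 1.54 in knockout 1, 2 and 3 and 2.93, 2.61 and 2.87 in the controls (difference -0.92, SE 0.24; limma, adjusted p = 0.424). Which part of the gene was deleted is not given, so its 1 probe may lie outside that part. How complete the deletion was in the sorted cells was not tested. Of 12 satellite cell markers, 12 were above background on at least 1 array and 9 on all 6. Of these 12, 6 had means above 0 and 6 below, with a median difference of -0.11. In 3 of them (Myf5, Calcr and Fgfr4, named after their values were seen) every knockout sample lay below every control, beside 5.62% of all features. Of these, Myf5 was above background on only 3 arrays and passed the filter through the controls alone, where it was higher. Its separation is thus not independent of the filter. Calcr and Fgfr4 were above background on all 6.

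Setting knockout against control cells asks whether the genes that supply ubiquitin and deliver tagged proteins differ in satellite cells of the Rpt3 knockout. Rad23b and Ubqln1 had the largest differences of the 7, at 1.77-fold and 1.73-fold of the control signal, and in both every knockout sample lay above every control sample. Ubqln2, Zfand5, Ubb and Rps27a had higher means in knockout cells by 1.37-fold or less, with overlapping groups, and Ubqln4 differed by -0.061. None of the 7 passed the threshold over all features (limma with Benjamini-Hochberg adjustment, 0 of 7 higher and 0 lower). That is also the background: 0% of the 19299 features were called higher and 0% lower. At an unadjusted p under 0.05, 2 of 7 were higher and 0 lower, beside 2.83% of all features higher and 4.22% lower. That count rested on the arrays used: it was 4 of 7 without knockout 3, 1 of 7 without knockout 2, control 1 or control 3, and 0 of 7 when blocked on slide row or in row 2 alone. In these fits 909, 416, 649, 466, 1593 and 1347 of the 19299 features were higher at that p, in the same order. Groups did not overlap, with knockout above, in 2 of 7, beside 5.1% of all features, and with knockout below in 0 of 7, beside 5.62%. The median difference was 0.32 over the 7 genes and 0.045 over all features. For the 7 genes it was 0.059 when blocked on slide row (all features 0.001) and 0.46 without knockout 3 (all features 0.017).

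**Figure D1:**
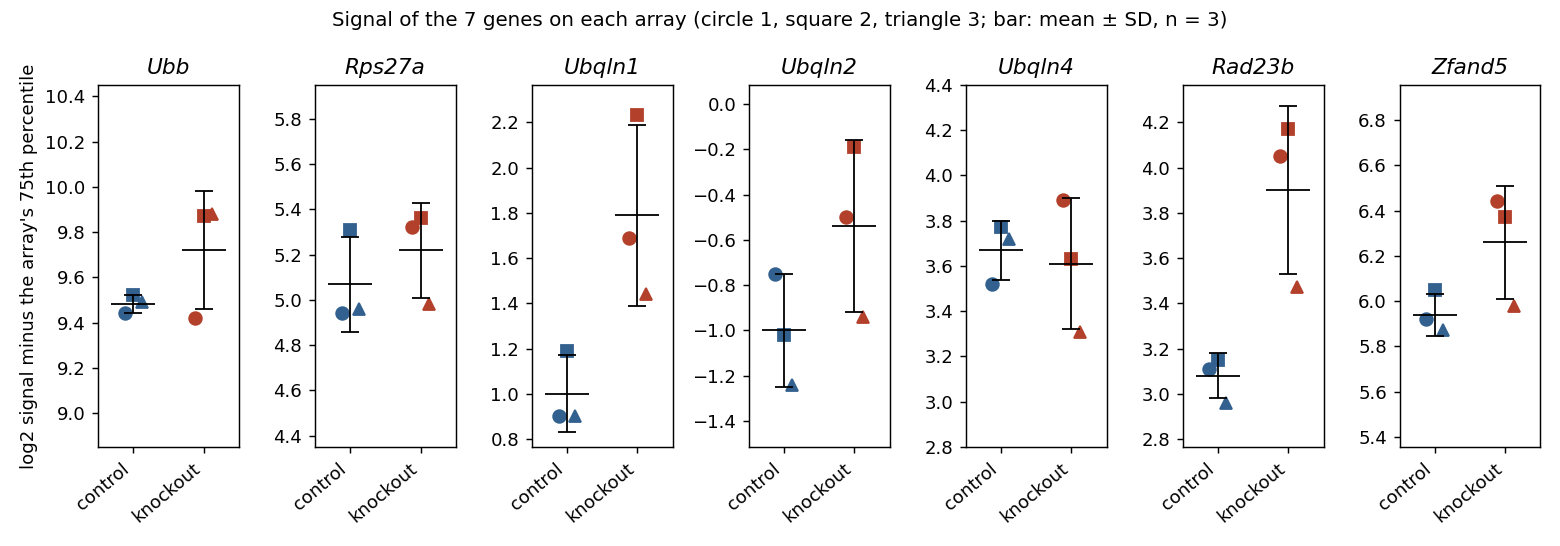
Signal of each gene on each array (vertical axis: log2 signal minus the array's 75th percentile; all panels span the same number of log2 units), with control samples in blue and knockout samples in red; circle, square and triangle are samples 1, 2 and 3 of a group, and bars give the mean ± SD (n = 3). The groups separate for Ubqln1 and Rad23b and overlap for the other 5 genes; knockout 3 is the lowest knockout sample in every panel other than Ubb, where knockout 1 is lowest.

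Neither Ubb nor Rps27a passed the threshold, and neither confidence interval reached above 0.75. The coding Ubb probe read 9.42 in knockout 1, 9.87 in knockout 2 and 9.88 in knockout 3, against 9.44, 9.52 and 9.49 for the controls in the same order of their numbers. Knockout 2 and 3 thus lay above all controls, while knockout 1 was the lowest of the 6. The knockout mean was 9.72 ± 0.26 and the control mean 9.48 ± 0.04 (SD, n = 3 each). The difference of 0.24 (SE 0.22, 95% confidence interval -0.27 to 0.75) was within the spread between samples (limma, adjusted p = 0.966; exact permutation p = 0.4). Leaving out knockout 1 moved it to 0.39 and leaving out knockout 2 or knockout 3 to 0.17 or 0.16, without a call in any of these fits, and with slide row as a block it was 0.4. The other Ubb probe, 508 bases further in the 3′ direction, read 5.91, 6.46 and 6.15 for knockout samples, against 5.85, 5.99 and 5.86 for controls. It gave nearly the same difference, 0.27 (SE 0.23), with knockout 1 inside the control range. Ubiquitin repeats are nearly identical to each other, and which ubiquitin transcripts the coding probe bound was not tested.

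Rps27a, which supplies ubiquitin together with a protein of the small ribosomal subunit, had the smallest positive difference of the 7. Its brightest probe (mm9, chr11:29445842-29445901) read 5.32, 5.36 and 4.98 for knockout samples, against 4.94, 5.31 and 4.96 for controls. Control 2 lay just under knockout 1 and 2, and knockout 3 beside the other controls. The difference was 0.15 (SE 0.23, 95% confidence interval -0.37 to 0.67; limma, adjusted p = 0.981), and blocking on slide row moved it to -0.087. The probe in the ribosomal part, 12 bases away, gave 0.11 (SE 0.25). The remaining probe, at the 5′ end of the gene, was above background in 2 of 3 knockout and 3 of 3 control samples and spread widely, from -2.49 to 0.41.

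**Figure D2:**
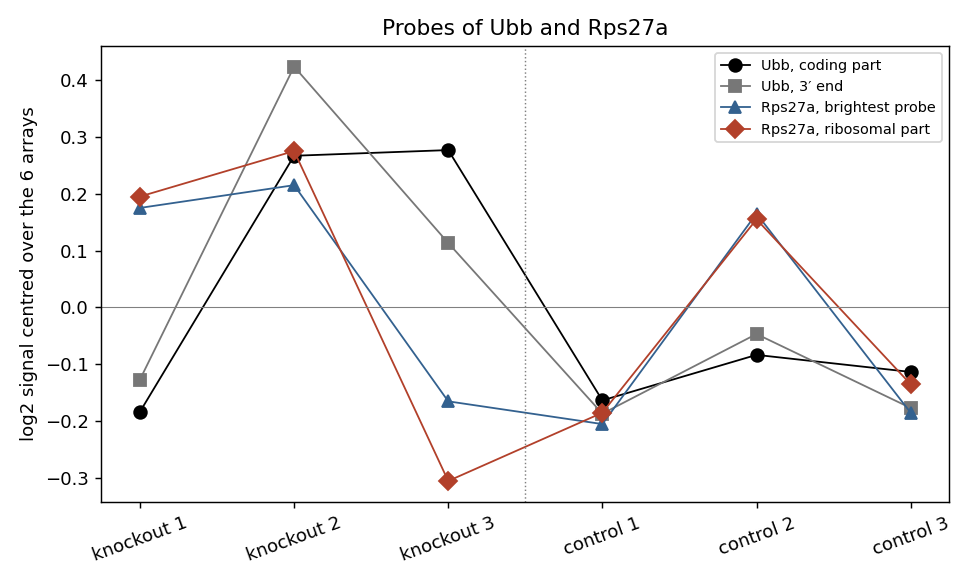
Log2 signal of 2 probes of Ubb and 2 of Rps27a, each centred on its own mean over the 6 arrays (vertical axis), by array (horizontal axis; knockout left and control right of the dotted line; lines only join the points of 1 probe). Knockout 1 lies below 0 in both Ubb probes, and knockout 3 lies below 0 in both Rps27a probes.

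The other genes of the small ribosomal subunit gave the setting for Rps27a. Of 31 tested, 0 passed in either direction over all features, 23 had means above and 8 below 0, and the median difference was 0.1. Rps15a had the smallest p, with a difference of 0.34 (SE 0.23; limma, adjusted p = 0.921), followed by Rps27, with 0.21 (SE 0.21; adjusted p = 0.973). The Rps27a value of 0.15 lies inside the list's range of -0.12 to 0.34. Blocked on slide row, the median of these genes was -0.16, the same side of 0 as Rps27a in that fit. It was -0.0019 without knockout 2, 0.23 without knockout 3 and 0.052 without control 1.

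Rad23b had the largest difference of the 7. Its brightest probe (A_65_P10180; mm9, chr4:55403215-55403274) read 4.05, 4.17 and 3.47 for knockout samples, against 3.11, 3.15 and 2.96 for controls. The lowest knockout sample, knockout 3, stood 0.32 above the highest control. The knockout mean was 3.9 ± 0.37 and the control mean 3.08 ± 0.1 (SD, n = 3 each), which differ by 0.82 (SE 0.25, 95% confidence interval 0.25 to 1.4). It ranked 433 of 19299 by p (limma, p = 0.0112, adjusted p = 0.496; exact permutation p = 0.1, which no design of 3 against 3 can go below). Blocking on slide row moved the difference to 0.4, and leaving out knockout 3 moved it to 1.03. A second probe, further in the 3′ direction (mm9, chr4:55404875-55404934), gave 0.34 (SE 0.28) with overlapping groups: 0.36, 0.46 and 0.23 in knockout against -0.39, 0.54 and -0.13 in control cells. The remaining Rad23b probe was not well above background on any array. The 2 tested probes thus differed in size, not in sign, and their mean gave 0.58.

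Ubqln1, a ubiquilin expressed in most tissues, came next. Its 1 probe (mm9, chr13:58278892-58278951, minus strand) read 1.69, 2.23 and 1.44 for knockout samples, against 0.9, 1.19 and 0.9 for controls. Knockout 2 was highest, and knockout 3, the lowest of its group, stood 0.25 above control 2. The difference was 0.79 (SE 0.26, 95% confidence interval 0.18 to 1.4), with rank 593 by p (limma, p = 0.0171, adjusted p = 0.555; exact permutation p = 0.1). Blocking on slide row moved it to 0.44. The knockout mean was 1.79 ± 0.4 and the control mean 1 ± 0.17 (SD, n = 3 each). Rad23b and Ubqln1 had similar profiles, with a root mean square difference of 0.15 between their centred values.

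Ubqln2, the X-linked ubiquilin whose mutations cause a familial motor neuron disease in people, read -0.5, -0.19 and -0.94 for knockout samples, against -0.75, -1.02 and -1.24 for controls (mm9, chrX:149935499-149935558). Knockout 3 lay between the controls, so the groups overlapped. The difference was 0.46 (SE 0.27; limma, adjusted p = 0.868), which was 0.059 when blocked on slide row, 0.21 with normexp background correction and 0.66 without knockout 3. Ubqln4, a ubiquilin that can pair with Ubqln1, read 3.89, 3.63 and 3.31 for knockout samples, against 3.52, 3.77 and 3.72 for controls (mm9, chr3:88372920-88372980). The knockout samples spread on both sides of the controls, and the difference was -0.061 (SE 0.23, 95% confidence interval -0.6 to 0.47; limma, adjusted p = 0.985). Without knockout 3 it was 0.088.

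Zfand5 read 6.44, 6.37 and 5.98 for knockout samples, against 5.92, 6.05 and 5.87 for controls, on its brightest probe (mm9, chr19:21356301-21356360). Knockout 1 and 2 lay above every control, and knockout 3 fell between control 1 and control 2. The difference was 0.32 (SE 0.22, 95% confidence interval -0.19 to 0.83; limma, adjusted p = 0.922). Blocking on slide row moved it to 0.033 and leaving out knockout 3 to 0.46. A second tested probe of Zfand5, 331 bases further in the 3′ direction, gave -0.012 (SE 0.21). It was far dimmer, with means of 0.85 in knockout and 0.86 in control cells, against 6.26 and 5.94 for the brightest probe. The other 2 probes were not tested: one was above background in 1 of 3 knockout and 2 of 3 control samples, the other on no array.

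Among the other shuttle and ZFAND genes, 7 of 13 were tested and 0 passed in either direction over all features. The median of these 7 was 0.055, and it ran from 0.02 without knockout 2 to 0.15 without control 1, with 0.023 when blocked on slide row. Zfand2a, which binds proteasomes under arsenite and other stress, read 1.09, 1.84 and 1.16 for knockout samples, against 0.57, -0.53 and -0.3 for controls, a difference of 1.45 (SE 0.35; limma, adjusted p = 0.385). All knockout samples lay above all controls. Zfand1, which brings the proteasome to stress granules, differed by 0.4 (SE 0.25; adjusted p = 0.882), also with no overlap. These were 2 of the 7 tested, beside 5.1% of all features with every knockout sample above. Ddi1, Ubqln5 and Ubqlnl were on the array and did not pass the filter on dim probes. Zfand4 had no probe under that name.

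Of the genes for the receptor sites where shuttle factors and ubiquitin chains dock, 3 of 4 had larger differences than any of the 7 genes, and Adrm1 lay just under Rad23b and Ubqln1. Psmd2 (Rpn1) differed by 1.04 (SE 0.22; limma, adjusted p = 0.34), Psmd4 (Rpn10) by 1.05 (SE 0.22; adjusted p = 0.34), Adrm1 (Rpn13) by 0.75 (SE 0.23; adjusted p = 0.504) and Psmd1, the scaffold that holds Adrm1, by 1.5 (SE 0.3; adjusted p = 0.32). In all 4 the knockout samples lay above the controls, beside 5.1% of all features, and 0 of 4 passed over all features. Their median difference was 1.05, and 0.79 with slide row as a block. Whether receptors and shuttles differ from each other was not tested. The medians of the 14 core subunits of the 20S particle and of the 18 subunits of the 19S particle other than Psmc4, which include these 4, were 1.06 and 0.84, and 0.62 and 0.63 when blocked on slide row.

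**Figure D3:**
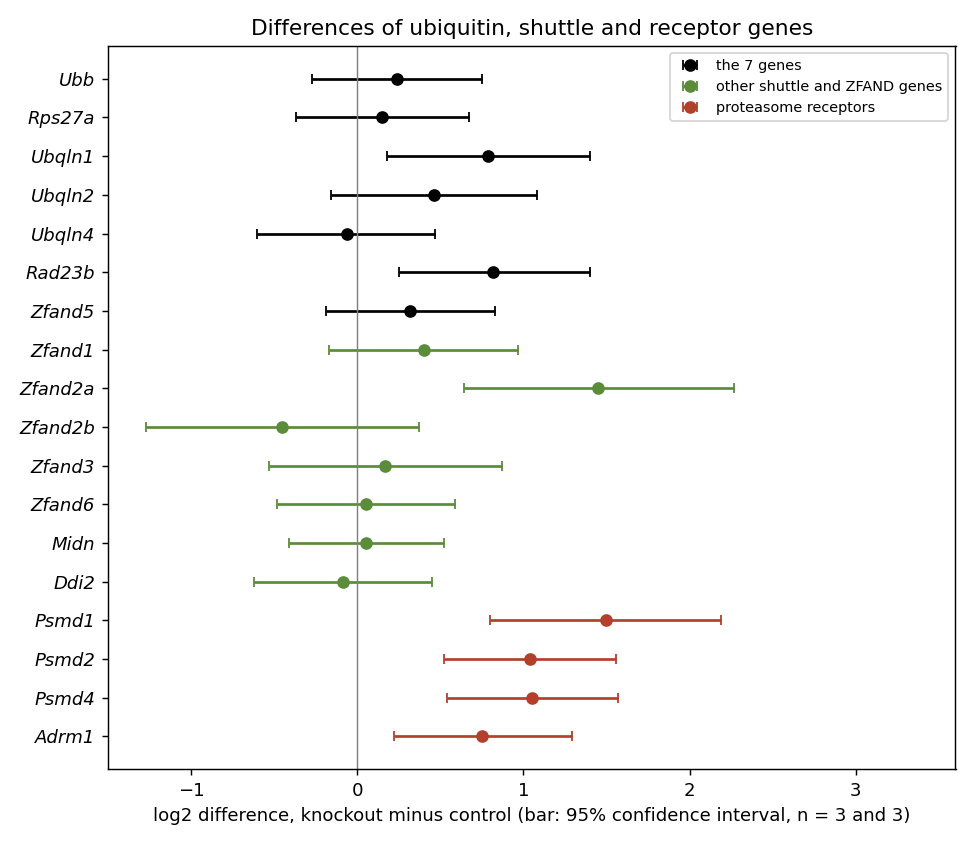
Log2 difference, knockout minus control, of the 7 genes (black), the other tested shuttle and ZFAND genes (green) and the proteasome receptors with the scaffold Psmd1 (red), with 95% confidence intervals from the limma fit (n = 3 and 3). The intervals of Ubqln1, Rad23b, Zfand2a and the 4 genes in red lie above 0, and all others cross it. None of these genes passed after adjustment over all features.

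Of 9 genes that activate, recycle or remove ubiquitin, 0 passed and the median was 0.32, which was -0.091 when blocked on slide row, 0.077 without knockout 1, 0.67 without knockout 3 and 0.2 without control 2. The proteasomal deubiquitinase gene Psmd14 differed by 1.16 (SE 0.28; limma, adjusted p = 0.372), and Uchl1, a ubiquitin hydrolase abundant in neurons, by 1.26 (SE 0.34; adjusted p = 0.443). In this list 6 genes had means above and 3 below 0. Partners of ubiquilins and Rad23 had a median of 0.11 over 6 tested genes, with 0 that passed. That median was -0.047 when blocked on slide row, 0.011 without knockout 1, 0.24 without knockout 3 and 0.17 without control 2. Herpud1, a ubiquilin partner in degradation from the endoplasmic reticulum, differed by 0.32 (SE 0.27; adjusted p = 0.961) and Ubl4a by 0.35 (SE 0.34; adjusted p = 0.974). Xpc, Ngly1 and Ubxn4 did not pass the filter on dim probes.

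Ubb is a classic heat shock gene, so the list of 13 tested heat shock genes was set beside it. Its median was 0.12, with 0 past the threshold over all features. The median was 0.00016 when blocked on slide row, -0.079 without knockout 2, 0.29 without knockout 1 and 0.049 without control 3. Hspb8, a chaperone that helps clear damaged muscle proteins, differed by 3.08 (SE 0.47; limma, adjusted p = 0.191), and Hspe1 by 0.31 (SE 0.26; adjusted p = 0.956). Knockout 1 was the lowest knockout sample in 8 of the 13 and in Ubb, beside 34.9% of all features. In the other 6 of the 7 genes, in 14 of 14 core subunits and in 29 of 31 ribosomal genes, knockout 3 was lowest, beside 42.5% of all features. Knockout 1 was also lowest outside the heat shock list: among the 7 other shuttle and ZFAND genes tested, it was lowest in 3 and knockout 3 in 3. The median of the heat shock genes, centred over the arrays, was -0.12, 0.55 and -0.06 in knockout 1, 2 and 3. That of the 20S core subunits was 0.87, 0.69 and 0.07. Rad23b stood at 0.56, 0.68 and -0.01 on the same centred scale, Ubqln1 at 0.3, 0.84 and 0.05, and Ubb at -0.18, 0.26 and 0.28.

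**Figure D4:**
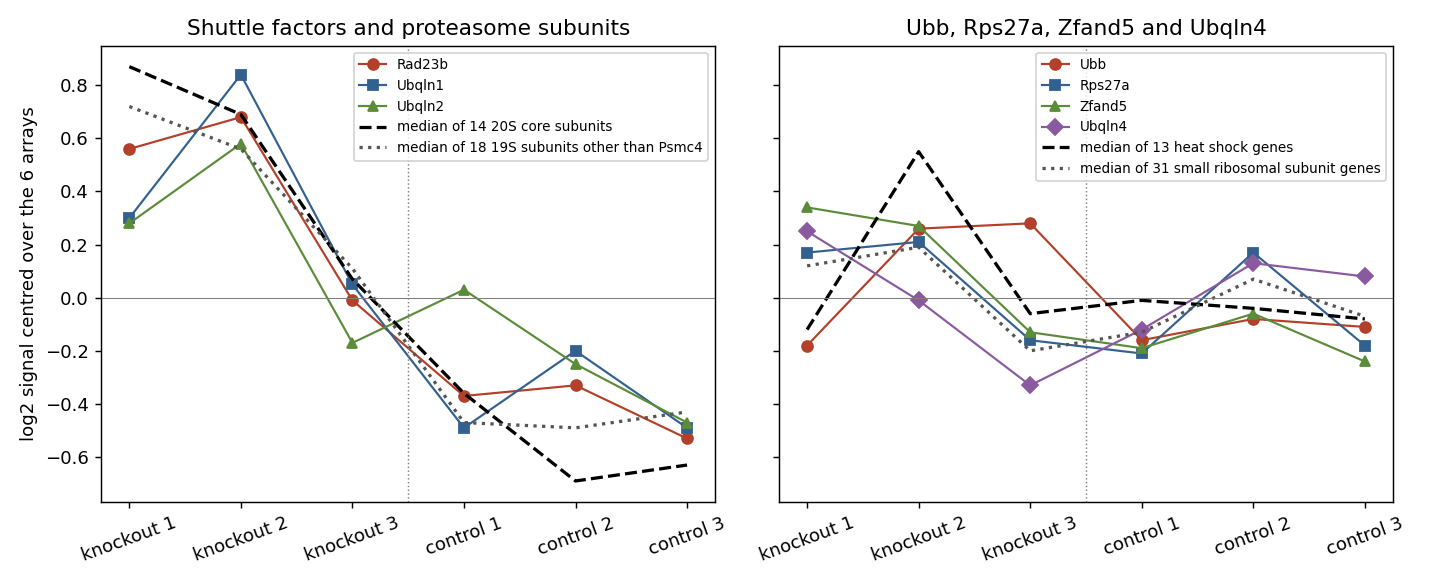
Log2 signal centred over the 6 arrays (vertical axis) by array (horizontal axis; knockout left and control right of the dotted line; lines only join points), for the 7 genes and, dashed or dotted, the medians of 4 gene lists. Rad23b and Ubqln1 lie at or above -0.01 in every knockout sample and at or below -0.2 in every control, while Ubb is lowest in knockout 1. In knockout 3, Ubqln4 is lowest of the 6 arrays, and Rps27a and Zfand5 lie below 0 but within the range of the controls.

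Markers of other cells were set beside these values. Red blood cell markers, 3 of 5 of which were above background on some array, had a mean centred signal of 0.49, 0.42 and 0.22 in knockout 1, 2 and 3 and of -0.26, -0.28 and -0.6 in the controls. Their summed signal, in units of the array's 75th percentile, was 5.42 to 9.48 in knockout and 1.88 to 4.21 in control cells, and Ahsp, among others, was not well above background on any array. Both scales separated the groups, and most of the summed signal in knockout cells came from Hba-a1 (difference 1.88, SE 0.44). Slc4a1, the other red cell marker tested, differed by -0.0044 (SE 0.62) with overlapping groups. The 10 neutrophil markers stood at 1.12, 1.06 and -1.22 for knockout samples, against 0.28, -0.59 and -0.65 for controls. All 10 were above background on some array but only 2 on all 6, so these means include dim values. Summed neutrophil signals, most of which came from the Csf3r probe, were 588 to 913 in knockout and 664 to 697 in control cells. Knockout 3 was lowest of the 6 arrays on the centred scale and highest by summed signal. The 8 macrophage markers, 7 of them above background on some array, 4 on all 6 and Cd163 on none, stood at 0.93, 0.44 and -0.55 for knockout samples, against 0.3, -0.39 and -0.73 for controls. Summed macrophage signals, most of which came from the Itgam probe, were 719 to 1240 in knockout and 830 to 842 in control cells. By that sum knockout 3 was highest of the 6 arrays, while on the centred scale it was the lowest knockout sample. Endothelial (8 of 8 detected on some array, 7 on all 6), fibro-adipogenic (7 of 7, and 7), lymphocyte (3 of 5, and 3) and muscle fibre markers (5 of 6, and 2) overlapped between the groups on the centred scale. Their centred means ran from -0.67 to 0.71, -0.45 to 0.13, -0.2 to 0.57 and -0.53 to 1.13 in knockout samples and from -0.97 to 0.98, -0.24 to 0.32, -0.32 to 0.01 and -0.22 to 0.01 in controls, in that order. Their summed signals were 30.1 to 77.2, 453 to 496, 4.83 to 8.11 and 7.47 to 18.1 in knockout samples, against 29 to 103, 563 to 906, 4.12 to 5.15 and 11.9 to 13.8 in controls. The fibro-adipogenic sum separated the groups, with knockout lower, and most of it came from Col1a1 (difference -0.71, SE 0.27). Col1a1 was the 1 of these 7 markers whose groups did not overlap, beside 5.62% of all features with knockout below. Of the 7, 3 had mean differences above 0 and 4 below. Cd8a of lymphocytes and Ckm of muscle fibres were at background on every array. The part of these cells in the differences of the 7 genes was not tested.

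The features with the most similar profiles, by the root mean square difference of centred values over the 6 arrays, were as follows. For Ubqln1 the nearest was Psmd11, a subunit of the 19S lid (0.1), and an unnamed transcript came second (0.11). For Rad23b they were Samd4 (0.1) and an unnamed interval on chromosome 1 (0.11). Ubqln2 was nearest to Hpf1 (0.063) and Nfkbib (0.076), and Rps27a to Erf (0.031) and Usp7, a deubiquitinase gene (0.034). Ubqln4 was nearest to an unnamed interval on chromosome 2 (0.032) and Pik3ca (0.042). Zfand5 was nearest to probe A_55_P2041581, which has no gene name (0.015), and Gm12471 (0.022). Ubb was nearest to probe A_55_P2001105, also without a gene name (0.03). With 6 arrays and 19299 features, such nearness describes these arrays only. Within the 7, the nearest pair was Rps27a and Zfand5 (0.12).

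Promoters are shown for Rad23b and Ubqln1, the pair whose samples separated. Each is the 250 bases before the gene's start in RefSeq on build GRCm38.p6, read in the direction of the gene: chr4:55349792-55350041, plus strand, for Rad23b and chr13:58215654-58215903, minus strand, for Ubqln1. Capitals mark a match to any of 3 motifs searched on both strands.
Rad23b: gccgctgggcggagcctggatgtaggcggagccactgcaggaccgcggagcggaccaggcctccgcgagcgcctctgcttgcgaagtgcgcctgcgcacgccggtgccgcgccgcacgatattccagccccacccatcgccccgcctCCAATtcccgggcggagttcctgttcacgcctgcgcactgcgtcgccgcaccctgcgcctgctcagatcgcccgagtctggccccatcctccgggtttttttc
Ubqln1: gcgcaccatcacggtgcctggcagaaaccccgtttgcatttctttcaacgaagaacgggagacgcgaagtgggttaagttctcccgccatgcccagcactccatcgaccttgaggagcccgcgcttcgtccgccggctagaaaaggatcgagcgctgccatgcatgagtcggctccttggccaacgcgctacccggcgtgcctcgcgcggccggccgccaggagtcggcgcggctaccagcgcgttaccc

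The motifs were the antioxidant response element TGACNNNGC, bound by the factors that raise proteasome genes when the proteasome is inhibited, the heat shock element GAANNTTC and the CCAAT box, whose letters are its name. The Rad23b window held 1 match, a CCAAT box 103 to 99 bases before the start, and the Ubqln1 window held 0. A CCAAT box was present in 33.9% of 32841 promoter windows of this length, an antioxidant response element in 10.2% and a heat shock element in 6.7%. Promoters of 5 of the 7 genes were in the table. Ubb has 2 windows in the table, and the others 1 each. An antioxidant response element was found in 1 of the 2 Ubb windows and in that of Zfand5, and for 5 of 26 proteasome subunit genes with a window. The other Ubb window held a CCAAT box, so that 2 of the 5 genes had one, as had 11 of the 26. A heat shock element was found for 0 of the 5. A gene was counted where any of its windows matched, so the counts of genes and the shares of windows are unlike measures. No match says only that these letters are not in these windows.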

How the data were processed

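Total RNA of the sorted cells was amplified as a whole transcriptome from 5 ng, and the amplified DNA carried Cy3, per the labels' protocols. The deposited scanner files hold linear intensity values, background-subtracted and detrended within each array by Agilent Feature Extraction 10.7.1.1, per the file headers (9.5.1.1 per the submitters' processing notes). The deposited value table, an alternative here, holds intensity with nearly equal quantiles in every array.

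Log2 processed signals were scaled to each array's 75th percentile. Control spots and spots flagged as outliers were left out; 3 probes with no unflagged spot on some array kept their value there, and 0 spots were saturated. Testing required signal well above background in every sample of 1 group or both, which left 26110 probes. The brightest such probe stood for a gene name and a probe without a gene name for itself, giving 19299 features. Accessions of 27235 probes matched the GRCm38.p6 gene table, used for names only. Groups were compared with limma 3.58.1 in R 4.3.3 (data.table, version 1.17.8), checked on simulated data, with Benjamini-Hochberg adjustment over all features at 0.05. Exact permutation tests were 2-sided. The p-values measure the spread between these 3 samples a group, and the number of arrays limits the precision (median standard error 0.274).

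The 7 genes, gene lists and marker lists were chosen with earlier results of these data known. The text names the 7 genes, Psmc4, every gene of a list of up to 4 and the 2 with the smallest p of a longer list, listed genes that were dim or missing, markers at background, and the 2 nearest profiles to each of the 7 (1 for Ubb); some items that this rule names are not reported here. Alternatives were background correction, normalization, the filter, the choice of probe, slide row, a replicate block and leaving out each array.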

Additional observations from a re-analysis of the deposited data

How the results depend on the processing

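Under 17 alternatives, 116 of 119 values of the 7 genes kept their direction and stayed short of the threshold, and 3 turned: Rps27a was -0.087 with slide row as a block and in slide row 2 alone, where knockout 3 is the only knockout sample, and Ubqln4 was 0.088 without knockout 3. Leaving out each array gave -0.2 to 0.088 for Ubqln4, 0.079 to 0.27 for Rps27a, 0.68 to 1.03 for Rad23b and 0.57 to 0.96 for Ubqln1. Adjusted p lay between 0.289 and 0.897 for Rad23b and between 0.405 and 0.944 for Ubqln1. Over all features, 0 were called higher in any alternative (1361 had an unadjusted p under 0.05, in either direction, as reported). For lower calls the count was 1 with quantile normalization, 1 in the deposited table and 2 with median scaling, and 0 otherwise; the features were Olfr591 in all 3 and Ereg with median scaling, named after their values were seen. The replicate numbers were not treated as pairs: same-numbered samples' deviations correlated at 0.0714, -0.0164 and 0.0907, and with the replicate block Rad23b was 0.82 and Ubqln1 0.79, with 0 features called in either direction. Of the 15 probes of the 7 genes, 11 were well above background on every array and 2 on none. The dim 5′ probe of Rps27a was tested and entered the mean over probes, which was 0.21 for Rps27a.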
